A study of Mus musculus with 15 samples.

Results

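Leydig cells are the androgen-making cells of the testis, and they lie between the seminiferous tubules rather than inside them. Here they were picked from single-cell RNA sequencing of mouse testis as cells that carried at least 5 unique molecular identifiers (UMIs, each standing for 1 captured RNA molecule) summed over Cyp17a1, Hsd3b1, Star, Insl3 and Cyp11a1, with at least 2 of these 5 genes detected. Cells with under 500 genes, under 1000 UMIs or 30% or more mitochondrial UMIs were set aside first. The rule found 309 Leydig cells among 76494 kept cells, or 0.404%, out of 101610 deposited barcodes.

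The study asked what JQ1, an inhibitor of the bromodomain and extraterminal (BET) proteins that include the germ cell protein BRDT, does to spermatogenesis and whether the testis returns to its former state after the drug is stopped. All mice were adult males of the inbred strain DBA/2J, and each of the 15 libraries came from 1 testis of 1 mouse, with 3 libraries in each of 5 groups. Treated mice (T, 10 wk old) received JQ1 at 50 mg/kg by daily intraperitoneal injection for 3 wk, and their vehicle controls (VC-T, 10 wk) received DMSO diluted in cyclodextrin for the same time. Recovery mice (R, 16 wk) and their vehicle controls (VC-R, 16 wk) went through the same injections followed by 6 wk without any, and untreated controls (UC) were 15 wk old. The tissue was digested with collagenase and the tubule fragments were collected by a spin at 60 g, after which the supernatant was discarded, a step that removes many of the loose interstitial cells to which Leydig cells belong.

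Leydig cells take up cholesterol or make it, carry it into the mitochondrion with the help of the protein encoded by Star, and turn it into testosterone through a fixed order of enzymes. Luteinizing hormone from the pituitary drives this through the receptor encoded by Lhcgr, and testosterone in turn keeps spermatogenesis going. Adult Leydig cells also secrete the peptide hormone INSL3, and they live in close contact with the macrophages of the interstitium.

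Depth and quality differed between the libraries. Total UMIs per library ran from 9673587 to 98724982, and the 3 R libraries, with 40582759 to 98724982, were the deepest. The library labelled VC-T 1 went against its label: transcripts of 9 late spermatid genes made up 0.228% of the UMIs of its other cells, within the 0.143% to 0.279% of the T libraries, while every other control and R library had 10.2% to 12.8%. The study also left this library out of its gene tests. It held 1 Leydig cell, so it entered the gene tests only in an alternative, and its share is given with and without it. Few Leydig cells were found in 2 further libraries, 4 in VC-R 2 and none in T 2, and gene tests used the 12 libraries with at least 5. No barcode was a Leydig cell in more than 1 library, although 9 of the 309 barcodes also named a kept cell in another library, and 1.95% of all kept barcodes did so.

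The 5 genes of the rule chose the cells, so their levels are given as a description. Cyp17a1 (chr19:46667165-46673172, GRCm38), the enzyme that makes androgens from pregnane steroids, gave 15138 UMIs over all Leydig cells and was detected in 98.7% of them, against 0.476% of the other kept cells. Insl3 (chr8:71689214-71690575), the peptide hormone, gave 15081 UMIs and was likewise detected in 98.7% of Leydig cells and in 0.536% of the others. Cyp11a1 (chr9:58006411-58027023), which cleaves the side chain of cholesterol, gave 5772 UMIs and was found in 94.8% against 0.487%. The other 2 genes were sparser. Star (chr8:25806555-25815982), the mitochondrial cholesterol carrier, gave 1631 UMIs and was found in 74.8% of Leydig cells and 0.923% of the other cells. Hsd3b1 (chr3:98852194-98859794) gave 1019 UMIs and was found in 60.2% against 0.135%, and its reads can be shared with its near-identical neighbour Hsd3b6, so both values are uncertain. The shares in the other cells are the background against which the Leydig cells were picked, at a median of 2492 to 4296 UMIs per other cell over the libraries, and of 1158 to 9406 UMIs per Leydig cell.

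Most Leydig cells stood well inside the rule. All 5 genes were detected in 151 cells, 4 in 100, 3 in 49 and only 2 in 9. The summed UMIs of the 5 genes ran from 5 to 570 with a median of 76, and they made up 0.0327% to 5.52% of a cell's UMIs, with a median of 2.53%. Just inside the threshold lay 22 cells with 5 to 9 of these UMIs, 5 of them with exactly 5, whose median total was 3220 UMIs and whose median share of late spermatid UMIs was 7.04%. Just outside lay 17 cells with 4 UMIs of 2 or more of the genes and 25 with 3, with a median total of 2213 UMIs and a median late spermatid share of 4.93%, and a further 4 cells had 5 or more UMIs of a single gene.

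Cells at the edge of the rule carried germ cell RNA. In 66 of the 309 cells the 5 genes made up under 1% of all UMIs, and there the median late spermatid share was 10.5% against 0.838% in the remaining 243 cells. Doublet scores moved with this. Among the 66 cells 25 (37.9%) had a Scrublet score in the highest 5.4% of their library, against 8 of the 243 (3.29%), and cells with high scores were kept in the main tests and removed in an alternative. The late spermatid share over all Leydig cells of a library was 12.8%, 4.29% and 3.73% in UC, 11.5% and 8.49% in VC-T 2 and VC-T 3, 0.101% and 0.0564% in T 1 and T 3, 2.37% and 3.09% in VC-R 1 and VC-R 3, and 3.92%, 3.84% and 6.55% in R. Both T libraries lay below the other 10, as they did in the cells that were not Leydig cells. Cells with under 1% marker UMIs weighed heavily in some sums, with 88.4% of the Leydig UMIs of UC 1, 76.2% of VC-T 2, 41.3% of VC-T 3 and 72.1% of VC-R 3, against 21.6% and 22.8% in T 1 and T 3. In VC-T 2, 6 such cells of over 25000 UMIs gave 66.9% of the sum, with late spermatid shares of 16.0% to 17.2%. In the cells with at least 1% marker UMIs the late spermatid share was 0.619% and 0.707% in VC-T 2 and VC-T 3 and 0.119% and 0.0619% in T 1 and T 3.

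**Figure D1:**
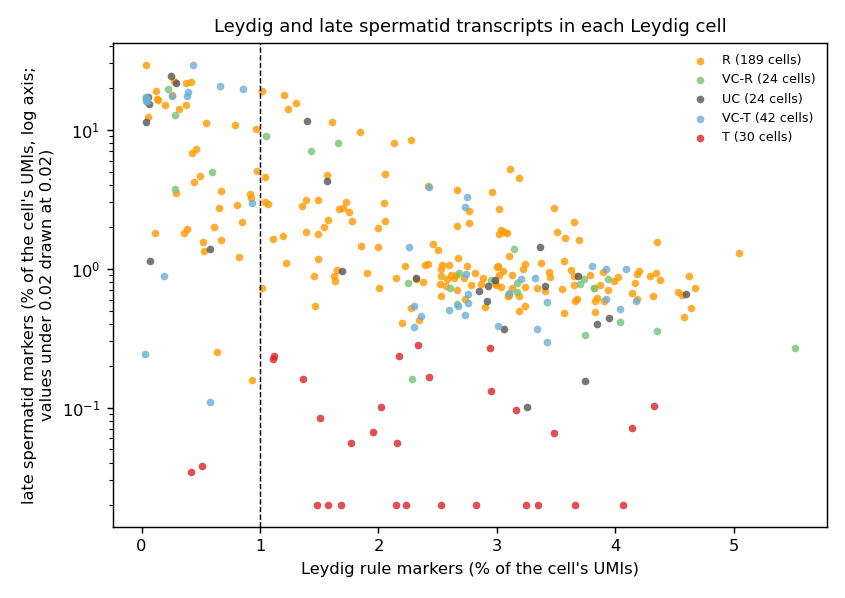
Each point is 1 of the 309 Leydig cells, with the percentage of its UMIs from the 5 marker genes on the horizontal axis and the percentage from the 9 late spermatid genes on the vertical axis (log scale, values under 0.02% drawn at 0.02%), colored by group. The 243 cells right of the line at 1% had a median late spermatid share of 0.838%, the 66 cells left of it 10.5%, and the cells of T lie at the bottom of the plot.

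RNA of other somatic cells was scarce. Macrophage genes (Pf4, Lyz2, C1qa, C1qb and Cd74) made up 0% to 0.0918% of the UMIs of Leydig cells per library, and all 5 were at 0 in T. Endothelial genes reached at most 0.00265%, stromal genes 0.0409% and peritubular myoid genes 0.0187%. Sertoli genes ran from 0.0662% to 0.403%, and 2453 of their 4778 UMIs were of a single gene, Defb19. Spermatogonial genes stayed at 0.0218% or below with Sall4 at 0, spermatocyte genes at 0.156% or below and early spermatid genes at 0.0870% or below.

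The genes most particular to the chosen cells included several of steroid synthesis. Genes were ranked by their CPM (UMIs of a gene scaled to 1000000 UMIs in all) in Leydig cells over their CPM in all other kept cells, among genes at 50 CPM or more in at least 8 libraries, and this ranking is a description because the rule picked the same cells. Beside the rule's own genes, the top 15 held Lrg1, a secreted leucine-rich glycoprotein (415 CPM, 4524-fold), Hsd3b6, the second 3β-hydroxysteroid dehydrogenase (1165 CPM, 4007-fold), and Bhmt, which remethylates homocysteine (1181 CPM, 3894-fold). They also held Sult1e1, the estrogen sulfotransferase (606 CPM, 3396-fold), Hsd17b3, which makes testosterone from androstenedione (642 CPM, 2493-fold), and the carboxylesterase gene Ces1d (249 CPM, 2275-fold). Paqr6, a membrane progestin receptor, the aldo-keto reductase gene Akr1cl, the epoxide hydrolase gene Ephx1, Tmem176a and the fatty acid binding protein gene Fabp3 filled the list, with 1845-fold for Fabp3 at 8622 CPM. Lower in the ranking, the iron-carrier gene Lcn2 stood at 12483 CPM and 1480-fold and the luteinizing hormone receptor gene Lhcgr at 232 CPM and 777-fold. Hsd17b3 and Lhcgr are known Leydig genes that the rule had not used, and in this the label held. Hsd3b6 is another, but it can share reads with the rule gene Hsd3b1 and is not counted here.

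The nuclear receptor SF-1, encoded by Nr5a1, is a master regulator of steroid-making cells and binds AGGTCA sites that carry an extended 5′ end. The motif AAGGTCA was sought on both strands in RefSeq promoters of GRCm38.p6, from 250 bases before to 50 after the start site. It was present in 1259 of 27025 promoters (4.66%) and in 2 of the 13 promoters that could be matched to the 15 leading genes, those of Bhmt and Sult1e1. They are printed here in the direction of transcription because they are the leading genes that hold it, and capitals mark the motif, which reads TGACCTT where it lies on the opposite strand. The Bhmt window (chr13:93637709-93638008, minus strand) held it 73 and 48 bases before the start site, and the Sult1e1 window (chr5:87591562-87591861, minus strand) held it 113 bases before.
Bhmt: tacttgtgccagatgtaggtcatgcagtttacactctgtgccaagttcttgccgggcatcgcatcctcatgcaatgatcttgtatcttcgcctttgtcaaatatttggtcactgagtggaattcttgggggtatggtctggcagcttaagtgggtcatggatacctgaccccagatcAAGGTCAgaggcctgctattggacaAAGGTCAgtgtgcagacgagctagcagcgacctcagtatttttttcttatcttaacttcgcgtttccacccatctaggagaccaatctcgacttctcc
Sult1e1: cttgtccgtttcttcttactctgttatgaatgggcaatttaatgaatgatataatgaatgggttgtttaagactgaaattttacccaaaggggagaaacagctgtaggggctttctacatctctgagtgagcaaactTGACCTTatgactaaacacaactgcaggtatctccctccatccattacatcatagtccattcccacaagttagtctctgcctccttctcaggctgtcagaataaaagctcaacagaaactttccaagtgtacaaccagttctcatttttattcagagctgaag

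Bhmt and Sult1e1 were both detected across the libraries, at 316 to 2158 CPM and at 142 to 1405 CPM. The match is a description of these letters, and no value here bears on binding of the factor. The longer form CAAGGTCA was in 1 of the 13 promoters, that of Bhmt, and in 1.53% of all promoters. The shorter AGGTCA was in 3 of the 13 and in 16.0% of all. Promoters of 3 rule genes, Hsd3b1, Insl3 and Cyp11a1, were among the 13 and held none of these forms. The Cyp11a1 window (chr9:57997774-57998073) ends before the gene start given above, 58006411. The sequence at that start was therefore not searched. Nr5a1 itself was detected in Leydig cells of 11 of the 12 libraries at 0 to 216 CPM, with 143 UMIs in all.

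Between libraries the levels of the rule's genes spread more widely than the balance between Insl3 and Cyp17a1. Cyp17a1 ran from 1880 CPM in UC 1 to 12223 CPM in VC-R 1 with a median of 7582 CPM, Insl3 from 1244 to 12242 CPM with a median of 7750 CPM, and Cyp11a1 from 715 to 5025 CPM with a median of 3033 CPM. Star ran from 53.0 to 1837 CPM and Hsd3b1 from 106 to 1675 CPM. All 5 were lowest in UC 1, where 3 of the 5 Leydig cells had markers under 1% of their UMIs and the late spermatid share was highest. The ratio of Insl3 to Cyp17a1 UMIs, which other RNA in the droplet does not dilute, lay between 0.595 in UC 3 and 1.60 in T 3 with a median of 0.913.

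The first comparison asked whether the share of Leydig cells among kept cells differed between groups. The R libraries held 35 of 7028 cells (0.498%), 56 of 7725 (0.725%) and 98 of 13471 (0.727%). The UC libraries held 0.152%, 0.162% and 0.315%, and the VC-R libraries 0.297%, 0.106% and 0.171%. All 3 R libraries lay above these 6 controls. R 1 lay below T 3 (0.623%), VC-T 2 (0.554%) and VC-T 3 (0.543%), and R 2 and R 3 lay above them. The mean was 0.650% ± 0.132 (SD, n = 3) in R and 0.201% ± 0.0850 (n = 6) in the pooled controls, a difference of 0.450 percentage points, with p = 0.0238 in an exact two-sided permutation test over libraries, which is the smallest p that 3 against 6 can give. Against UC alone the difference was 0.440 and against VC-R alone 0.459 percentage points, each with p = 0.1 by the exact permutation test, the smallest p that 3 against 3 allows.

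**Figure D2:**
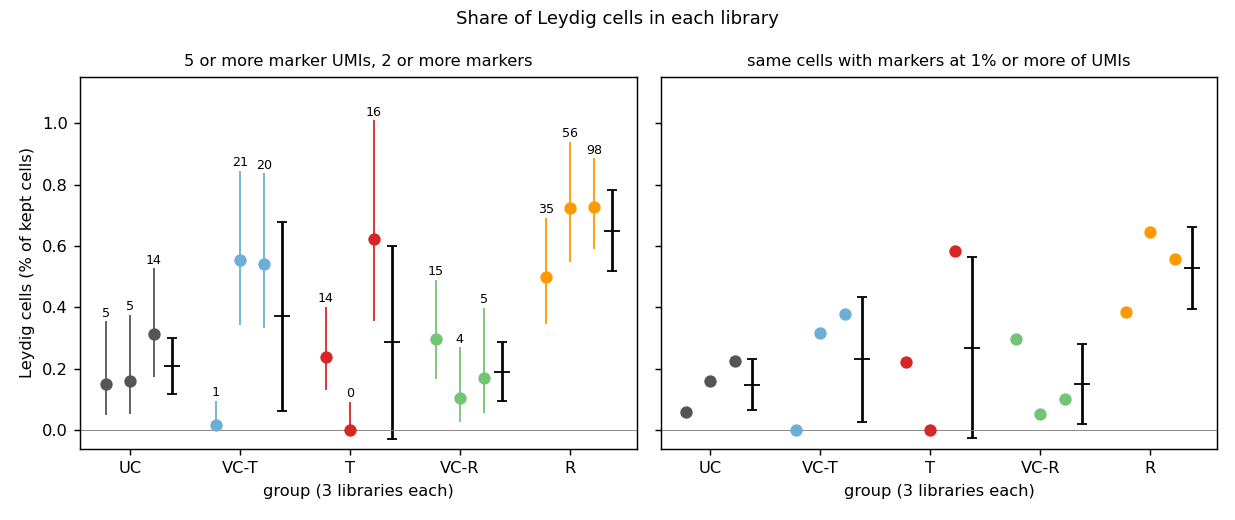
The vertical axis gives Leydig cells as a percentage of the kept cells of each library, for all Leydig cells (left, with the number of cells and a colored line for the Clopper-Pearson 95% interval of each library) and for those with at least 1% marker UMIs (right), and the black bars give the group mean ± 1 SD (n = 3). On the left the R libraries sit between 0.498% and 0.727%, above every UC and VC-R library, and the T libraries run from 0 to 0.623%.

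The higher share in R was not particular to Leydig cells. Macrophages picked by a rule of the same form numbered 328, and they made up 0.952% ± 0.344 (SD, n = 3) of kept cells in R against 0.226% ± 0.144 (n = 6) in the pooled controls, with an exact permutation p of 0.0238, the smallest possible. Peritubular myoid cells, which wrap the tubules, numbered 101 and made up 0.0862% in R against 0.111% in the controls (exact permutation p = 0.738). The log2 ratio of Leydig cells to macrophages was -0.50 in R and 0.04 in the controls (exact permutation p = 0.595), and the groups overlapped. The R libraries also differed in depth, with 7028 to 13471 kept cells against 2918 to 5049 in UC and VC-R and 40582759 to 98724982 UMIs against 11010746 to 22785693. The part of depth and of tissue handling in the higher share was not tested. With cells counted only where the 5 genes made up at least 1% of UMIs, the difference was 0.379 percentage points (0.529% against 0.150%, exact permutation p = 0.0238).

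In T the share spread widely. It was 0.240% (14 of 5841 cells) in T 1, 0 of 3992 in T 2, which allows a share of up to 0.0752%, and 0.623% (16 of 2569) in T 3. The VC-T libraries were as uneven, at 0.0172% (1 cell) in VC-T 1, 0.554% in VC-T 2 and 0.543% in VC-T 3. That limit is 3 cells of the total, and it lies below the exact Clopper-Pearson 95% interval of T 3, from 0.356% to 1.01%. Limit and interval cover counting error only. The mean of 0.287% ± 0.314 (SD, n = 3) in T and of 0.290% ± 0.221 (n = 6) in UC and VC-T gave p = 1 in the exact permutation test, and without VC-T 1 the difference was -0.0576 percentage points (exact permutation p = 0.750). A difference in share was not detectable with this spread.

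Leydig cells of treated mice carried few UMIs. The median was 1702 UMIs per Leydig cell in T 1 and 1158 in T 3. It was 9406, 3276 and 2588 in UC and 8799 and 3263 in VC-T 2 and VC-T 3, so both T libraries lay below all 5 controls. The other kept cells showed no such order, with medians of 3269 and 2872 UMIs in T 1 and T 3 against 2899 to 3282 in these controls. Taken as a ratio to the other kept cells of the same library, the Leydig median was 0.521 in T 1 and 0.403 in T 3 against 0.850 to 3.17 in the controls, and the exact permutation test of the log2 ratio gave p = 0.0952, the smallest that 2 against 5 libraries can give, so this design could not reach 0.05. Among the cells with at least 1% marker UMIs the ratios were 0.520 and 0.390 against 0.738 to 2.39 (p = 0.0952 by the same exact test).

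The floor of 1000 UMIs cut into this. In T 3, 24 of the 40 barcodes that met the marker rule (60.0%) had under 1000 UMIs and were not kept, and these made up 2.39% of its 1004 barcodes outside the cell filter. With no minimum of UMIs or genes, the Leydig median was divided by the median of all deposited barcodes of the library. This denominator was 1497 UMIs in T 1 and 1067.5 in VC-T 2, against 3269 and 2899 in the other kept cells. The ratio was 0.969 in T 1 and 0.487 in T 3 against 0.421 to 6.36 in the controls. The groups overlapped (exact permutation p = 0.571). In R the ratio to the other kept cells was 0.857, 1.28 and 2.99 against 0.850 to 3.17 in UC, VC-R 1 and VC-R 3 (exact permutation p = 0.536). Among cells with at least 1% marker UMIs it was 1.25, 1.30 and 3.01 in R against 0.653 to 0.998 in the same controls, all 3 above all 5 (exact permutation p = 0.0357, the smallest that 3 against 5 can give), with UC 1 and VC-R 3 resting on 2 and 3 cells. With no minimum of UMIs or genes, again divided by all deposited barcodes, the R groups overlapped (exact permutation p = 0.143).

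**Figure D3:**
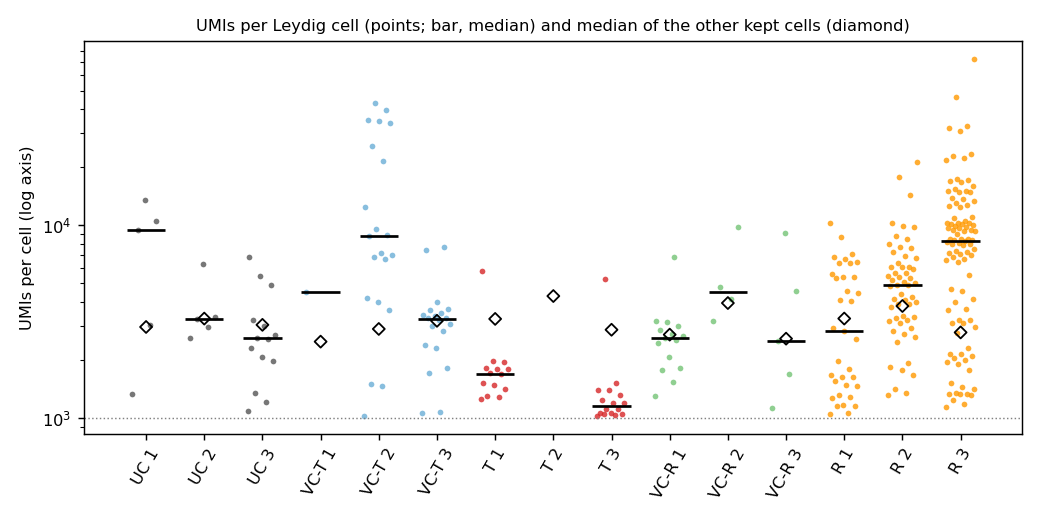
The vertical axis, on a log scale, gives UMIs per Leydig cell with 1 point per cell and a bar at the median of each library, the open diamond marks the median of the other kept cells of that library and the dotted line the minimum of 1000 UMIs. The Leydig medians of T 1 and T 3, at 1702 and 1158 UMIs, lie below their diamonds, while those of VC-T 2 and R 3 lie well above them.

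For gene tests the UMIs of all Leydig cells of a library were summed, and the sums ran from 18506 UMIs in UC 2 to 977493 in R 3, so that 1 UMI stood for 54.0 CPM in UC 2 and 1.02 CPM in R 3. A gene was called where it changed by more than 1 on the log2 scale in either direction with an adjusted p below 0.05 in edgeR's quasi-likelihood test (Benjamini-Hochberg over all tested genes). Each library is a separate mouse. The tests share libraries, UC in T against UC and R against UC, T in both tests of T and R in both tests of R.

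Against the vehicle controls of the same age, 138 of 912 tested genes were called in T (15.1%), 10 higher and 128 lower. In VC-T 2, cells with under 1% marker UMIs gave 76.2% of the UMIs behind this test, and without them, in all libraries, 6 genes were called. The lower genes with the smallest adjusted p were those of germ cells. All 9 late spermatid genes fell, with a median log2 fold change of -6.97 against -0.02 over all tested genes. The loss of their transcripts from T testes was known when this list was chosen, so its direction is not independent evidence. Tnp1 and Tnp2, the transition proteins that replace histones in the spermatid nucleus, fell, with log2 fold changes of -6.97 ± 0.65 (SE) and -7.18 ± 0.73 (adjusted p = 4.4e-06 and 5.91e-06, edgeR). The protamine genes Prm1 and Prm2 fell as well (-7.80 and -9.19). So did Smcp, of the sperm mitochondrial capsule (-5.09), and Gapdhs, the sperm form of the glycolytic enzyme (-5.07). The further lower genes with the smallest adjusted p were 1700027A15Rik (-6.18), Dbil5 (-3.31), Hmgb4 (-5.27) and 1700042G07Rik, which had no UMI in T and 345 in VC-T and was at least 15.0-fold lower.

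Nearly all lower genes were more abundant in other cells. Of the 128 lower genes, 127 had a higher CPM in the other kept cells than in Leydig cells, and 117 were also more than 2-fold lower in the other cells of the T libraries. Over all 912 tested genes, 524 were higher in Leydig cells, and 227 were more than 2-fold lower in those other cells. So were 4 of the 10 higher genes. Tested genes that were higher in other cells had a median log2 fold change of -0.84, and those higher in Leydig cells had a median of 0.21. The late spermatid share of the other cells moved in the same way, at 0.143% to 0.279% in T and 11.1% and 11.8% in VC-T 2 and VC-T 3. When only genes higher in Leydig cells entered the fit, 517 passed the filter on low counts and 5 were called (0.967%). The spermatid gene Odf1 (-3.95) and Zfp706 (-2.33) were lower, and Aldh1a1 (1.41), Aldh2 (1.29) and Jun (1.96) were higher.

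**Figure D4:**
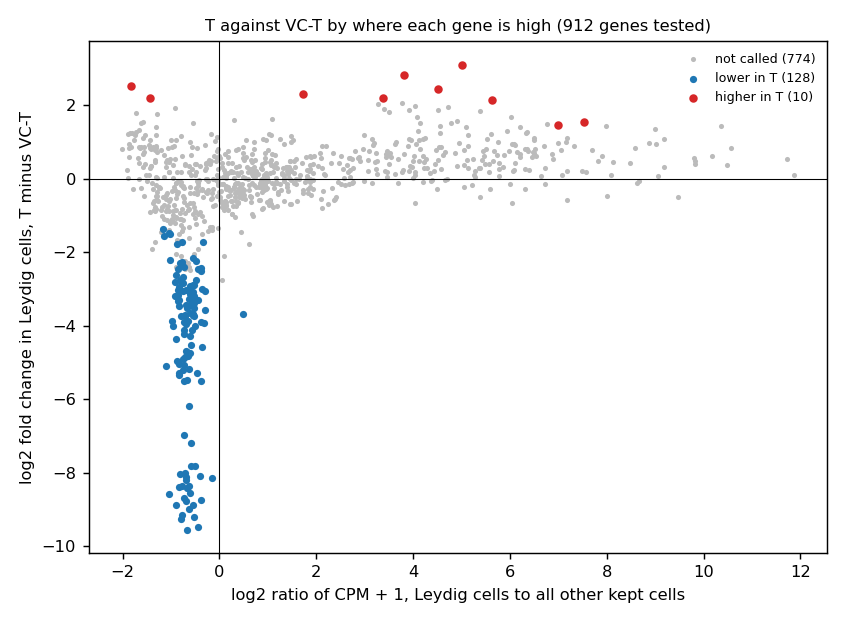
Each point is a gene tested in T against VC-T, with the log2 ratio of its CPM + 1 in Leydig cells to that in other kept cells on the horizontal axis and the log2 fold change in Leydig cells on the vertical axis, called genes in color. The 128 lower calls lie left of 0, where transcripts of other cells lie, except 1, and 8 of the 10 higher calls lie right of 0.

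The 10 higher genes included members of aldehyde oxidation and of the early response. Aldh1a1 (chr19:20492715-20643465), which oxidizes retinaldehyde and is abundant in Leydig cells, stood at 4257 and 3038 CPM in T, at 632 and 1621 CPM in VC-T, at 212, 1837 and 1378 CPM in UC, at 2390 and 1369 CPM in VC-R and at 2396, 2083 and 1574 CPM in R. Both T libraries lay above the other 10. It rose by 1.54 ± 0.42 (SE) on the log2 scale against VC-T (adjusted p = 0.0188, edgeR). Aldh2, the mitochondrial aldehyde dehydrogenase, stood at 1792 and 2821 CPM in T and at 480 and 1000 CPM in VC-T, and rose by 1.45 ± 0.41 (adjusted p = 0.0241, edgeR). UC 2, at 2216 CPM, overlapped with T. Neither gene was called when cells of high doublet score were removed or when only cells with at least 1% marker UMIs were used.

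The remaining higher genes rested on 11 to 21 UMIs over both T libraries. Prss35, a serine protease-like gene, stood at 224 and 304 CPM in T, which is 13 UMIs in all, and at 15.8 and 45.5 CPM in VC-T (log2 fold change 3.10 ± 0.65, adjusted p = 0.00377, edgeR). Cebpd, a transcription factor gene, rose by 2.44 and Fosb, of the AP-1 family, by 2.81. S100a11, a calcium-binding protein gene, rose by 2.18, Ifnar2, of the type I interferon receptor, by 2.14 and Gramd1b, which moves cholesterol between membranes, by 2.30. Ccdc38 and Lypd9 rose by 2.53 and 2.20 but were more abundant in the other cells than in Leydig cells. Some of these levels were also reached outside T. Fosb stood at 224 and 217 CPM in T and at 218 CPM in UC 3. Ifnar2 stood at 261 and 260 CPM in T and at 296 CPM in VC-R 1. Ccdc38 stood at 224 and 304 CPM in T and at 265 CPM in UC 1. Gramd1b stood at 597 and 217 CPM in T and at 342 CPM in R 1. For Prss35, Cebpd, S100a11 and Lypd9 both T libraries lay above all others. None of the 10 was called higher by DESeq2, which called 92 genes and all of them lower, and leaving out T 1 or T 3 left no gene called higher.

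Cells with less germ cell RNA gave fewer calls. Among the Leydig cells with at least 1% marker UMIs, 6 of 496 tested genes were called (1.21%). Prm1, Prm2, Tnp1 and Tnp2 were lower and Jun (1.80) and Meig1 (1.77), a gene of spermiogenesis, were higher. Among these cells and only the genes higher in Leydig cells, none of 428 was called, with 37 at an unadjusted p under 0.05. With VC-T 1 kept, whose single Leydig cell then entered as a library, no gene was called.

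Against untreated mice 5 of 560 genes were called in T (0.893%), all lower and all late spermatid genes. The log2 fold change was -5.07 ± 0.83 (SE) for Smcp, -6.32 ± 1.12 for Tnp1, -6.67 ± 1.18 for Tnp2 and -8.84 ± 1.60 for Prm2 (adjusted p = 0.0294 for each, edgeR), and -4.89 ± 0.97 for Gapdhs (adjusted p = 0.0473, edgeR). All 5 were more abundant in the other cells. Prm1, at -7.10, missed the threshold (adjusted p = 0.0535, edgeR). The 5 calls were lost without UC 3, without T 1 and without T 3. Without UC 1, 14 genes were called, and without UC 2, 66. Among the 314 tested genes that were higher in Leydig cells none was called.

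Steroid synthesis was not called as changed in either comparison. In T against VC-T, 9 of the 20 genes of the steroidogenesis list passed the filter on low counts and none was called. All 9 had a positive log2 fold change, with a median of 0.61. The median was -0.02 over all tested genes and 0.21 over those higher in Leydig cells. Of the 9, 5 did not overlap between the groups, where 55% of all tested genes did not overlap and 33.1% were higher without overlap. Hsd17b3 stood at 1158 and 1172 CPM in T, at 284 and 515 CPM in VC-T and at 185, 1459 and 943 CPM in UC, and its change against VC-T was 1.35 with an adjusted p of 0.0644 (edgeR). In T against UC 7 were tested and none was called, with a median of 0.37. There the median was -0.07 over all tested genes and 0.20 over those higher in Leydig cells.

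Akr1cl, the aldo-keto reductase gene, had the highest mean CPM of the list, at 3622 and 3863 CPM in T, 1368 and 2924 CPM in VC-T and 847, 3891 and 3094 CPM in UC. Fdx1, the electron donor of the mitochondrial steroid enzymes, stood at 1867 and 1476 CPM in T and at 487 and 1560 CPM in VC-T. Hsd3b6, which shares reads with Hsd3b1, stood at 598 and 1563 CPM in T and at 360 and 1015 CPM in VC-T. Among the T, VC-T and UC libraries, VC-T 2 and UC 1 were the lowest for these genes, and they had the highest late spermatid shares, at 11.5% and 12.8%. The part of that RNA in the spread was not tested. Cyp19a1, the aromatase gene, was more abundant in the other cells, at 90.7 CPM against 20.7 CPM in Leydig cells.

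Of the 26 genes of cholesterol synthesis and handling 5 were tested in T against VC-T and none was called, with a median log2 fold change of 1.00. The median was -0.02 over all tested genes and 0.21 over those higher in Leydig cells. Fdps, of the mevalonate pathway, had the highest level, at 1083 and 1042 CPM in T, 256 and 712 CPM in VC-T and 185, 1945 and 604 CPM in UC. Msmo1 stood at 373 and 347 CPM in T and at 79.0 and 258 CPM in VC-T, and Hmgcs1 at 261 and 174 CPM in T and at 75.8 and 303 CPM in VC-T. In T against UC only Fdps was tested, with a log2 fold change of 0.21.

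The list of gonadotropin response and Leydig identity had 20 genes, of which 3 were tested in T against either control and none was called. Vcam1, an adhesion molecule of Leydig cells, stood at 2539 and 2604 CPM in T, above all other libraries, of which UC 2 was the highest at 1891 CPM. Among cells with at least 1% marker UMIs this order was lost, with 2762 and 3093 CPM in T 1 and T 3. There VC-T 2 stood at 2838 CPM, the 3 cells of VC-R 3 at 3392 CPM and the 2 cells of UC 1 at 3653 CPM. Its change against VC-T was 1.08 with an adjusted p of 0.0767 (edgeR). Prlr, the prolactin receptor gene, stood at 672 and 738 CPM in T, 281 and 652 CPM in VC-T and 79.4, 865 and 604 CPM in UC. Lhcgr, at 149 and 217 CPM in T and 88.5 and 197 CPM in VC-T, was too sparse to be tested there.

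Ptgds (chr2:25466709-25470046), the lipocalin-type prostaglandin D synthase of mature Leydig cells, depended on which cells and libraries were used. It stood at 896 and 1693 CPM in T, 1150 and 1939 CPM in VC-T, 953, 5782 and 3601 CPM in UC, 9094 and 1948 CPM in VC-R and 5522, 5115 and 4567 CPM in R. Its change in T against UC was -1.52 ± 0.64 (SE), with an adjusted p of 0.267 (edgeR), and against VC-T it was -0.49 (adjusted p = 0.580, edgeR). In the Leydig cells with at least 1% marker UMIs it was called lower in T against UC, by -1.89 (adjusted p = 0.0044, edgeR), where 5 of 325 genes were called (1.54%). There UC 1 was left out of the test because it held 2 such cells.

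The Ptgds levels of those cells were then set out by age, a split made after the values were seen. The 4 libraries of 10-wk-old mice, T and VC-T, ran from 857 to 4230 CPM and the 8 libraries of 15- and 16-wk-old mice from 4522 to 9094 CPM. The ranges did not overlap, but the nearest values were close, 4230 CPM in VC-T 2 and 4522 CPM in VC-R 3. VC-R 3 held 3 such cells and UC 1 held 2, both under the minimum of 5 used for gene tests. The share of all genes that part by age in this way was not counted. Over all Leydig cells the ranges were 896 to 1939 CPM and 953 to 9094 CPM and did overlap. The 10-wk-old mice were also those taken directly after the injections, so age and recent injection cannot be told apart here, and neither can age and treatment in T against UC. Among these cells and only the 285 genes higher in Leydig cells, 4 were called in T against UC (1.4%), Ptgds (-1.91), Apoe (-1.39), which carries lipid, and Alas1 (-1.40), of heme synthesis, lower and Aldh1a1 (1.25) higher.

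**Figure D5:**
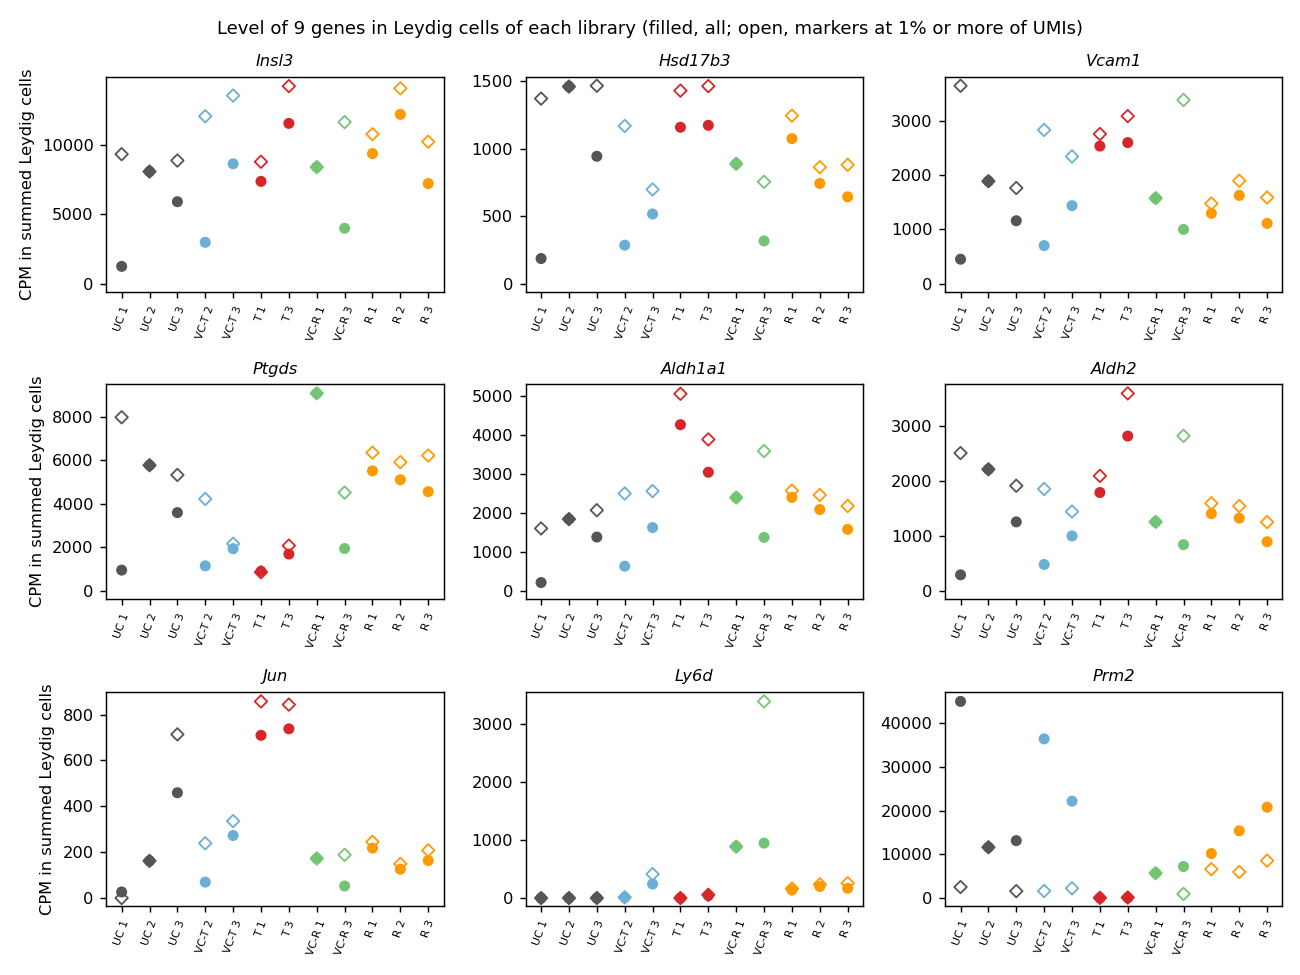
Each panel gives the CPM of a gene in the summed Leydig cells of each library, filled circles for all Leydig cells and open diamonds for those with at least 1% marker UMIs, colored by group. Over all Leydig cells Aldh1a1 is highest in the 2 T libraries, at 4257 and 3038 CPM, and Ly6d in VC-R 1 and VC-R 3, at 887 and 947 CPM. The open diamonds of UC 1 and VC-R 3 rest on 2 and 3 cells.

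Of the 22 redox and detoxification genes 16 were tested in T against VC-T. Aldh1a1 and Aldh2 rose, none fell and 14 were not called, where 1.1% of all tested genes were called higher and 14% lower. The median log2 fold change was 0.73 against -0.02 over all tested genes and 0.21 over those higher in Leydig cells. The most abundant were the glutathione transferase genes Gstm1, at 6348 and 8508 CPM in T and 2837 and 5575 CPM in VC-T, and Gstm2, at 3846 and 6251 CPM in T and 1592 and 2803 CPM in VC-T. Their counts are uncertain because the Gstm genes are near-identical in sequence. In T against UC, 15 were tested and none was called.

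The early response genes are switched on within minutes of a stimulus, and dissociation of a tissue is also known to induce them. Of 18 genes 6 were tested in T against VC-T, and Fosb rose, where 1.1% of all tested genes were called higher. For Fosb, UC 3, at 218 CPM, lay between the T libraries, at 224 and 217 CPM. The median log2 fold change of the 6 was 1.69 against -0.02 over all tested genes and 0.21 over those higher in Leydig cells. Jun stood at 710 and 738 CPM in T, at 69.5 and 273 CPM in VC-T, at 26.5, 162 and 459 CPM in UC, at 173 and 52.6 CPM in VC-R and at 218, 126 and 164 CPM in R. Both T libraries lay above all others, and its change against VC-T was 2.04 with an adjusted p of 0.0523 (edgeR). Fos stood at 560 and 651 CPM in T and at 82.1 and 212 CPM in VC-T (1.94, adjusted p = 0.0564, edgeR), but UC 3, at 628 CPM, lay between the T libraries. In T against UC none of 5 was called.

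The targets of the drug were too sparse to test. None of the 12 genes of the BET family and of transcription elongation passed the filter in T against VC-T or T against UC. Brd2 gave 165 UMIs and Brd3 190 over the 12 libraries. Hexim1, which BET inhibitors are known to raise, gave 53 UMIs, with 149 CPM in T 1, which is 4 UMIs, and 0 in T 3. Brdt, the germ cell member, stood at 49.7 CPM in Leydig cells and at 112 CPM in the other cells. Of 13 inflammation genes B2m and H2-D1, of antigen presentation, were tested in T against VC-T and neither was called. H2-D1 and H2-K1 can share reads.

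After withdrawal few genes were called as changed. In R against VC-R, 1 of 2560 genes was called (0.0391%), and it was Ly6d, a surface protein gene of the Ly6 family (chr15:74762056-74763620). It stood at 140, 200 and 168 CPM in R and at 887 and 947 CPM in VC-R, and fell by 2.27 ± 0.35 (SE) on the log2 scale (adjusted p = 0.0439, edgeR). It was 0 in all 3 UC libraries, 6.32 and 242 CPM in VC-T and 0 and 43.4 CPM in T, and only 0.0178 CPM in the other kept cells. VC-R 1 and VC-R 3 were therefore the high ones. VC-R 2, with 4 Leydig cells, was not in this test, and with it included none of 1475 genes was called. Against UC, Ly6d was at least 5.61-fold higher in R, with an adjusted p of 0.809 (edgeR). Ly6d was also the call among only the 1500 genes higher in Leydig cells (1, or 0.0667%) and among the cells with at least 1% marker UMIs (1 of 4389, or 0.0228%). With both restrictions 2 of 2627 were called (0.0761%), Ly6d (-1.86) and Serpina5 (-1.13), a protease inhibitor gene, and in the fits with these cells VC-R 1 was the lone control. The call in R against VC-R was lost without R 1, without R 2, without R 3 and without the cells of high doublet score, and leaving out VC-R 1 gave 161 called genes with VC-R 3, of 5 cells, as the lone control, which was assumed to vary as the R libraries do.

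In R against UC none of 1486 genes was called by edgeR, with 59 at an unadjusted p under 0.05, and none by DESeq2, with 128. All 9 late spermatid genes were tested there and none was called, with a median log2 fold change of -0.74 against -0.09 over all tested genes. The same list had a median of 0.79 against 0.06 in R against VC-R, again with none called. In R the late spermatid share of Leydig cells, at 3.84% to 6.55%, lay within the 3.73% to 12.8% of UC.

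The steroid, cholesterol, identity and redox lists had no called member in either R comparison. Steroidogenesis had 10 genes tested against UC with a median of 0.37 and 12 against VC-R with a median of 0.35. Cholesterol had 12 with a median of -0.21 and 16 with a median of 0.17, and the redox list had 16 with a median of 0.14 and 17 with a median of 0.00. Over all tested genes the median was -0.09 against UC and 0.06 against VC-R. Over those higher in Leydig cells it was 0.22 and 0.11. Lhcgr could be tested here, at 334, 368 and 234 CPM in R, 394 and 52.6 CPM in VC-R and 0, 270 and 242 CPM in UC, and was not called. Aldh1a1, Aldh2 and Jun were not called in R against either control.

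Whether the change in T against VC-T differed from that in R against VC-R was tested as an interaction, and 130 of 1147 genes passed at an adjusted p under 0.05 (11.3%). Tnp1, Tnp2, Prm1, Prm2, Smcp and Gapdhs passed, Tnp1 with a difference of -8.14 ± 1.10 (SE; adjusted p = 0.00164, edgeR). Aldh1a1 (1.06 ± 0.93, adjusted p = 0.684), Aldh2 (0.86 ± 0.86, adjusted p = 0.759) and Jun (1.33 ± 1.25, adjusted p = 0.729) did not pass in the same edgeR fit, so their changes in T and in R were not shown to differ.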

How the data were processed

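Single-cell RNA of 15 testis libraries (10x Genomics) was read from deposited matrices of raw UMI counts for 32285 genes, which the authors made with Cell Ranger against mm10. The matrix headers name version 7.0.0 and the submitters' processing notes 3.0.0, and whether intronic reads were counted is not given in the sources used here. The authors' ambient RNA and doublet removal came after the deposited matrices, so neither had been applied. Members and lists were chosen with earlier results of these data known. Cells were kept and Leydig cells chosen by the thresholds in the text, and doublet scores came from Scrublet in scanpy 1.11.5, run on each library, with the highest 5.4% called high.

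UMIs were summed over the Leydig cells of each library with at least 5 of them (total 18506 to 977493) and tested with edgeR 4.0.16 in R 4.3.3 (TMM, filterByExpr, quasi-likelihood, Benjamini-Hochberg), 2 groups at a time. The study's methods used DESeq2 against UC, and DESeq2 1.42.0 was an alternative here. Shares were compared over libraries with exact two-sided permutation tests (SciPy 1.17.1). A floor is 3 UMIs summed over a group. On simulated counts for T against UC, 347 genes passed the low-count filter. Among the changed genes that passed it, the test recovered 67.6% of 4-fold and 98.8% of 8-fold changes. Changed genes that the filter removed were not counted as missed. The test also called 5 unchanged genes. Every simulated library had the same mean profile, every gene had the same fixed variation between libraries, and only genes of higher count were changed. The recovered shares therefore do not measure how often such changes are missed in the real libraries. Genes were named by a rule: per comparison the 10 called genes of smallest adjusted p in each direction, called list members, up to 3 members of highest CPM in lists without 3 called, and the 15 leading genes. Others were named after their values were seen. Gene positions come from GENCODE vM21 (GRCm38). No authors' cell annotation was used here.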

Additional observations from a re-analysis of the deposited data

Results flagged for a closer look

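The library labelled VC-T 1 stood apart from UC and the other VC-T libraries in the late spermatid UMIs of its other cells, at 0.228%, and its Leydig cell had 0.111%. UC 1 stood apart from UC and VC-R in the median UMIs of its Leydig cells, at 9406, with 3 of its 5 cells having under 1% marker UMIs. Such a gap to the nearest library appears by chance in about 1 in 20 groups.

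For 9 of the genes named in T against VC-T the change differed from that in R against VC-R by the interaction test. The difference on the log2 scale was -4.83 for Smcp, -8.14 for Tnp1, -8.12 for Tnp2, -10.78 for Prm2, -6.18 for Gapdhs and -9.11 for Prm1. It was -8.04 for 1700027A15Rik, -11.69 for 1700042G07Rik, whose value depends on the prior count because T had no UMI of it, and -5.82 for Hmgb4. All 9 are more abundant in other cells than in Leydig cells, and the late spermatid share of the other cells moved with them.

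Barcodes outside the cell filter held marker RNA. In T 3, 24 of 1004 such barcodes met the marker rule, or 2.39%, against at most 1.03% in the UC and VC-T libraries, and all 24 had under 1000 UMIs.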

How the results depend on the processing

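The higher Leydig share in R kept its direction in every alternative. At 3 marker UMIs it was 0.431 percentage points with p = 0.0476 (exact permutation test), and the groups overlapped because UC 1, at 0.549%, lay above R 1, at 0.526%. It was 0.440 percentage points against UC alone and 0.459 against VC-R alone, and 0.411 to 0.526 with any 1 library left out, with exact permutation p up to 0.0714 without an R library, the smallest possible there. For T the difference changed sign against UC alone (0.0778), at 10 marker UMIs (0.0368), at 1% marker UMIs (0.0782), without high doublet scores (0.0324) and with no minimum of UMIs or genes (0.134), and ran from -0.171 to 0.141 with 1 library left out.

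In T against UC, with 5 genes called, DESeq2 called 40, DESeq2 size factors in edgeR 0, no low-count filter 36, libraries of 10 or more Leydig cells 44, all groups in 1 fit 121, 10 marker UMIs 13, no high doublet scores 0, only Leydig-higher genes 0, pooled UC and VC-T controls 105 and no minimum of UMIs 42. With 1 library left out the count ran from 0 to 66. In R against UC, no filter called 1 (Ly6d) and 10 or more cells 12. In T against VC-T, with 138 called, no filter called 244, 10 marker UMIs 64, no high doublet scores 4, only Leydig-higher genes 5, VC-T 1 kept 0, at least 1% marker UMIs 6 and those cells with only Leydig-higher genes 0. With 1 library left out the count ran from 5 (without T 3) to 238 (without VC-T 3), with 19 without T 1 and 73 without VC-T 2. In R against VC-R, with 1 called, DESeq2 called 2, no filter 0, 10 or more cells 4, at least 1 cell 0, all groups in 1 fit 0, 10 marker UMIs 0, no high doublet scores 0, at least 1% marker UMIs with Leydig-higher genes 2 (Ly6d and Serpina5) and no minimum of UMIs 0, and 0 to 161 with 1 library left out. The causes were not tested beyond the fewer cells, genes or libraries that each alternative used.

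Of 3572 values of named genes under alternatives, 3332 kept their side of the threshold (393 uncalled ones among them with the opposite sign), 111 became called, 124 lost the call and 5 had the opposite sign with a call in either fit: Tnp2 in R against UC with 10 or more cells (1.51), Dbil5 (0.0913) and Meig1 (1.77) in T against VC-T at 1% marker UMIs, and Ptgds (2.22) and Serpina5 (2.58) in R against VC-R without VC-R 1, where leaving out 1 library gave -0.60 to 2.22 and -1.24 to 2.58. Deviations from the group mean in same-numbered libraries had correlations from -0.65 to 0.45, with 4 of 19 pairs over 0.1. With so few libraries per group this check cannot show whether the replicate numbers pair the mice. With the replicate number as a block, 71 genes were called in T against UC, 0 in R against UC and 2 in R against VC-R, the share differences stayed at 0.450 and -0.00298 percentage points, and T against VC-T left no residual degrees of freedom. Depth limits these tests, since 1 UMI was 37.3 and 43.4 CPM in T 1 and T 3.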
